A study of Homo sapiens with 24 samples.

Results

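Cancer-testis antigens outside the MAGE family were followed in 2 human acute myeloid leukaemia (AML) lines, UCSD-AML1 and ELF-153, before and after decitabine (DAC), a cytidine analogue that is built into DNA and traps the DNA methyltransferases. The group held 10 genes picked by symbol (CTAG2, SSX1, PAGE2, PAGE2B, PAGE5, PRAME, CTCFL, PASD1, DDX53 and FMR1NB) out of 52994 genes with a matched transcript, and all 10 were in the tables of both harvests. Each line was left untreated or given 100 nM DAC on 4 days with the medium renewed daily, and RNA was taken at 96 h or 144 h, which made 8 groups of 3 libraries. All groups shared the same medium, with 20% serum and 5 ng/ml GM-CSF, and the untreated cells carried no label of a solvent control. Both lines are long-established cultures and not patient cells, and the 3 libraries of a group were described as technical triplicates, so p-values reflect how far these libraries lie apart and may be technical. Because the RNA came from whole cultures, more cells with a transcript and more transcript per cell cannot be told apart.

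Cancer-testis antigens are proteins made mainly by germ cells of the testis, silent in most other adult tissues and switched on again in some tumours, where peptides derived from them can be recognised by T cells. Many of their genes lie on the X chromosome, and methylation of CpG sites around the transcription start is a known layer of their silencing in somatic cells, which is why inhibitors of DNA methylation are used to study them. Among the genes followed here, CTAG2 belongs to the same family as the tumour antigen gene CTAG1B, SSX1 encodes a repressor of transcription that is joined to SS18 in synovial sarcoma, and the PAGE genes encode small acidic proteins related to the GAGE antigens. PRAME is a leucine-rich repeat protein that serves as a substrate receptor of CUL2 ubiquitin ligases and can repress retinoic acid receptor signalling, and CTCFL is the testis paralogue of the chromatin architecture protein CTCF. PASD1 is a PAS-domain protein related to the circadian factor CLOCK, DDX53 is an intronless DEAD-box RNA helicase gene, and FMR1NB lies beside FMR1 and encodes a membrane protein of germ cells.

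Of the 10 genes, 8 lie on the X chromosome, while PRAME lies on chromosome 22 and CTCFL on chromosome 20. RefSeq promoter windows (GRCh38.p14, 250 bases before to 50 after the start) were found for 8 of the 10 and not for CTAG2 and FMR1NB. The 250 bases before the start are printed for the PAGE genes, which are related copies, with PAGE5 at the lowest DAC effects of the tested genes. They are also printed for SSX1 and DDX53, which had the fewest and the most CpG sites among the X-linked genes with a window. All 5 are on the plus strand, written 5′ to 3′ with each CpG in capitals: PAGE2 at chrX:55088768-55089017, PAGE2B at chrX:55074780-55075029, PAGE5 at chrX:55220096-55220345, SSX1 at chrX:48255142-48255391 and DDX53 at chrX:22999710-22999959.
PAGE2: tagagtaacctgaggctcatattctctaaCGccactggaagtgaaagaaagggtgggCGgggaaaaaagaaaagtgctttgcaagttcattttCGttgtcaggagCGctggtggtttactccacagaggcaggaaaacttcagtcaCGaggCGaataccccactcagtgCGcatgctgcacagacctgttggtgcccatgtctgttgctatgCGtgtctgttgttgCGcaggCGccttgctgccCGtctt
PAGE2B: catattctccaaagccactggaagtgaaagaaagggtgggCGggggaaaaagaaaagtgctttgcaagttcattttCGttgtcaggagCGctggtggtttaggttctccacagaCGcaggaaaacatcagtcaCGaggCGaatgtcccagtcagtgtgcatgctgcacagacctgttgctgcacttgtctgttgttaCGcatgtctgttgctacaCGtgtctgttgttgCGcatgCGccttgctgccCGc
PAGE5: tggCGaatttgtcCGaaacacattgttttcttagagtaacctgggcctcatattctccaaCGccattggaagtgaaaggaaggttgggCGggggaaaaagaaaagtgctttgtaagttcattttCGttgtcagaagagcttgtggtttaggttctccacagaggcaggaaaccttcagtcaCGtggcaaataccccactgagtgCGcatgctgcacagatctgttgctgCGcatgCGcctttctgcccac
SSX1: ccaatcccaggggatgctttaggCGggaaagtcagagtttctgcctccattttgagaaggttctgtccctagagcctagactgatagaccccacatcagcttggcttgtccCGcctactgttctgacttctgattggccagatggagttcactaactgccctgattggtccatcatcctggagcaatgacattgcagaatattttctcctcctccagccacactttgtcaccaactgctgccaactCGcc
DDX53: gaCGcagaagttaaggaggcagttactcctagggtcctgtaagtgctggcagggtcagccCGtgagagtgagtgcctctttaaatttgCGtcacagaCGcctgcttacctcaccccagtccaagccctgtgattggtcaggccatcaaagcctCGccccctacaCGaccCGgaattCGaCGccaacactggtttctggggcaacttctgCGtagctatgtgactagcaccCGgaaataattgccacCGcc

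The X-linked promoters were of middling CpG number. Over the whole 300-base window, SSX1 held 5 CpG sites, PAGE5 10, PASD1 11, PAGE2B 12, PAGE2 13 and DDX53 14, against a median of 14 and quartiles of 4 and 28 over all 34941 windows. SSX1 had more CpG sites than 29.7% of all windows and DDX53 more than 49.8%. PRAME had 13, 12 and 4 CpG sites in its 3 windows and CTCFL 19, 15 and 2. The PAGE2 and PAGE2B windows were identical at 86.1% of aligned positions, PAGE2 and PAGE5 at 78.4%, and PAGE2B and PAGE5 at 74.3%, whereas PAGE2 and SSX1 matched at 54.6%. Among motifs searched on both strands, the GC box GGGCGG was present in PAGE2, PAGE2B and PAGE5, in 1 of the 3 PRAME windows and in all 3 CTCFL windows, and in 44.9% of all windows. The E-box CACGTG was present in PAGE2B and PAGE5 (7.23% of all windows) and the ETS core CGGAAG in PASD1 and PRAME (19.4%). The CRE core TGACGT (7.97%) and the TATA box TATAAA (11.6%) were found in none of the members' windows. These matches describe the letters of the windows only, and no methylation was measured in these samples.

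**Figure D1:**
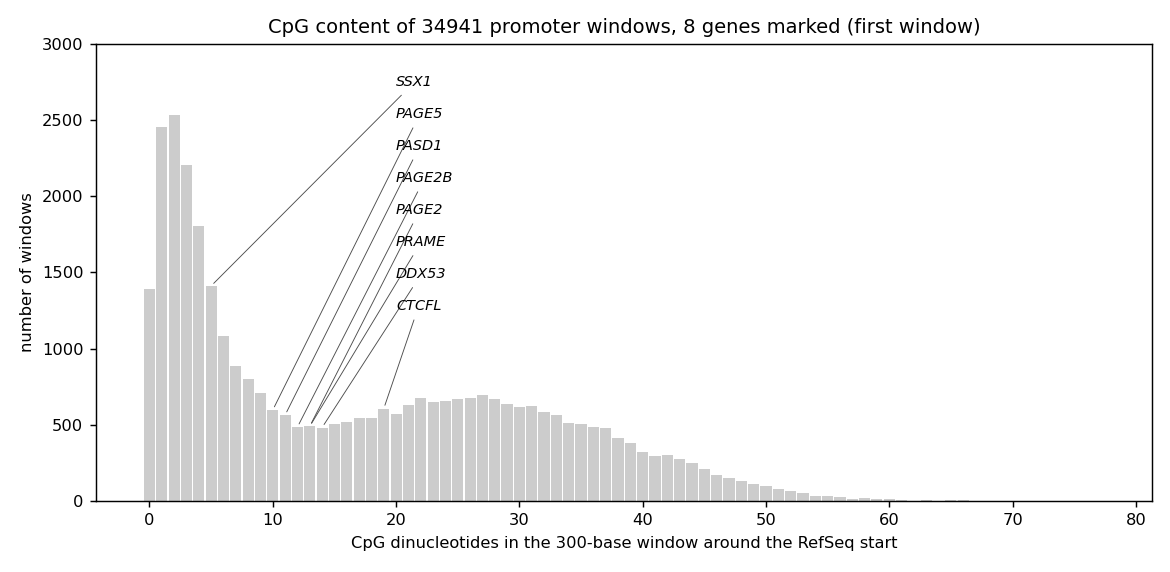
Number of CpG sites (x axis) in 34941 RefSeq promoter windows of 300 bases (y axis, number of windows), with lines marking the first window of each of the 8 members that had one. SSX1 sat lowest with 5 sites, CTCFL highest with 19, and the other 6 between 10 and 14, close to the median of 14.

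Sequencing depth ran from 13.1 to 28.5 Mreads per library, and mitochondrial ribosomal RNA took 13.1% to 63.8% of them. In UCSD-AML1 at 96 h that share was 49.3% to 51.3% in untreated and 61.7% to 63.8% in treated libraries, and in ELF-153 it was 13.1% to 35% and 37.3% to 49.8%. Libraries of 1 group differed by more than counting noise (chi-square per degree of freedom 3.57 to 205), so none was a copy of another. The labelled cell type was checked on defining markers. PTPRC, CD33, CD34 and KIT were present in every group. MPO was at most 1.13 in any library, and the epithelial marker EPCAM was at 0 in every group. The lines were not alike on MECOM, which was also read. It stood at 1139 scaled reads or more in every UCSD-AML1 library and at most 13.18 in any ELF-153 library. CD3E of T cells reached at most 6.10 in any library. Other genes of the lists that hold CD3E and EPCAM did have reads. The 8 lymphoid markers summed to 953 to 1089 scaled reads in untreated UCSD-AML1 and 1054 to 1547 in untreated ELF-153 at 96 h. The 9 fibroblast and epithelial markers summed to 205 to 229 and 81.9 to 139 in the same groups. COL1A1, a collagen gene of fibroblasts, averaged 2.75 scaled reads untreated and 29.3 treated in UCSD-AML1 at 96 h, 2.51 and 39.0 there at 144 h, and at most 5.58 in ELF-153, and its part in the members' levels was not tested. Over all genes, another scaling (TMM) changed how calls divided: in treated UCSD-AML1 3513 genes were higher and 3545 lower at 96 h, which became 4203 and 2786 with TMM and edgeR, and at 144 h 3450 and 4609 became 4524 and 3320. The median change of all tested genes moved from -0.03 to 0.11 at 96 h and from -0.14 to 0.14 at 144 h, while each member called in UCSD-AML1 stayed called higher with edgeR, 8 genes at 96 h and 7 at 144 h.

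In untreated cells these genes were almost without reads. Of the 120 values (10 genes in 12 untreated libraries), 14 were above 0, with 58 reads in all, of which PAGE5 held 50. No untreated library had a read of CTAG2, PASD1, DDX53, PAGE2 or CTCFL. FMR1NB had 3 reads, PRAME 3, SSX1 1 and PAGE2B 1 over the 12 untreated libraries. With 3 libraries per group, no read allows a mean of up to 0.905 to 1.01 scaled reads, depending on the group. Scaled reads are reads divided by 1 size factor per library and not by gene length, so levels are compared between samples and not between genes. With DAC, 110 of 120 values were above 0, with 6727 reads, and 7 of the 10 genes had reads in all 12 treated libraries. The exceptions were PAGE2 and PAGE5 with 11 each and CTCFL with 4.

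**Figure D2:**
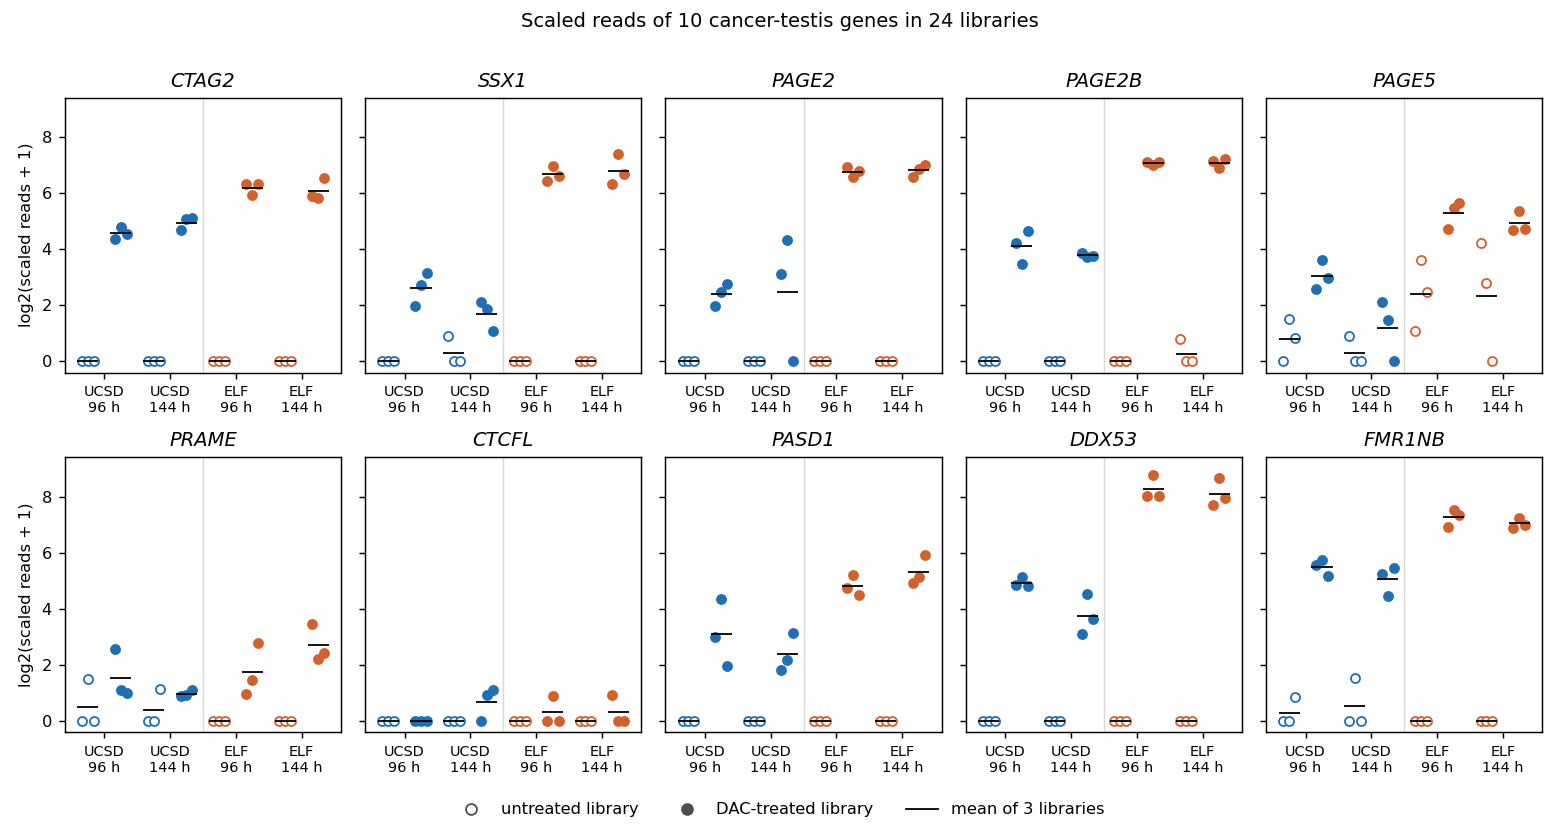
Level of each of the 10 genes, as log2(scaled reads + 1) on the y axis, in every library of UCSD-AML1 (blue) and ELF-153 (orange) at 96 h and 144 h (open points untreated, filled points DAC, lines the mean of 3 on the log scale). Untreated points lie at or near 0 except for PAGE5 in ELF-153, where 17.4 was the highest, and the treated ELF-153 points of all genes but PRAME and CTCFL lie above the treated UCSD-AML1 points.

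In DAC-treated UCSD-AML1 at 96 h, 8 of the 10 genes had all 3 treated libraries above all 3 untreated ones, against 26.8% of all genes tested in that comparison. In ELF-153 at 96 h 9 of 10 did (24.9% of all genes), at 144 h in UCSD-AML1 6 of 10, of which SSX1 only by the size factors of libraries with 1 read each (23.8%), and at 144 h in ELF-153 9 of 10 (26.2%). PRAME and CTCFL did not reach the minimum for testing, 10 scaled reads in at least 3 of the 12 libraries of a table. The other 8 passed that minimum through treated libraries, so a difference was bound to appear for them and their number is no evidence by itself. Called means an adjusted p under 0.05 in limma, Benjamini-Hochberg over all genes. On log2(scaled reads + 1), 8 of 8 were called higher in treated than in untreated UCSD-AML1 at 96 h, where 20% of all tested genes were called higher. The counts were 8 of 8 in ELF-153 at 96 h (20.7% of all genes), 7 of 8 in UCSD-AML1 at 144 h (20.1%) and 8 of 8 in ELF-153 at 144 h (20.8%). None was called lower, whereas 20.1%, 12.9%, 26.8% and 18.2% of all genes were, in the same order. With the mitochondrial ribosomal RNA share as a covariate, 7 of 8 were called higher in each of the 4, and PAGE5 was the one not called.

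**Figure D3:**
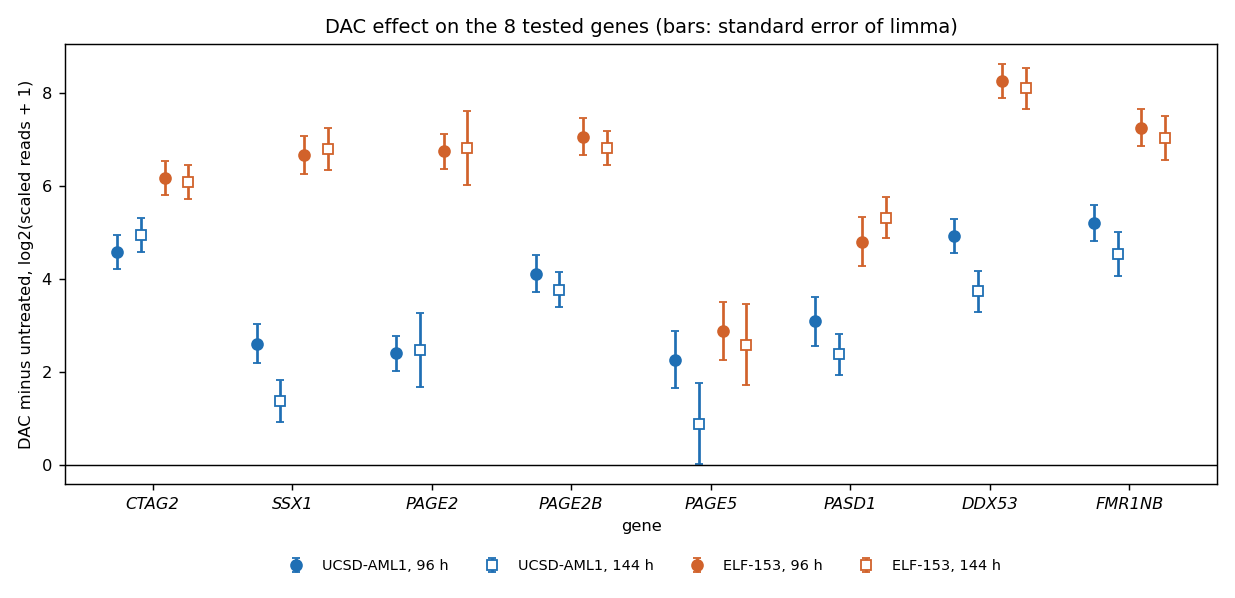
DAC effect (treated minus untreated, difference of means of log2(scaled reads + 1), y axis) for the 8 tested genes in the 4 comparisons, with bars of 1 standard error from limma. In ELF-153 the effects reach 8.26 for DDX53 at 96 h, and in UCSD-AML1 the highest is 5.20 for FMR1NB at 96 h. PAGE5 is the lowest in each comparison.

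CTAG2, the X-linked relative of CTAG1B, had 0 reads in every untreated library. In UCSD-AML1 its treated libraries stood at 19.7, 27 and 22.3 scaled reads at 96 h and at 24.4, 32.4 and 33.8 at 144 h. In ELF-153 they stood at 78.6, 59.3 and 78.3 at 96 h and at 58.5, 56 and 92.2 at 144 h. Treated and untreated libraries did not overlap in either line, and the 3 treated ELF-153 libraries were above the 3 treated UCSD-AML1 libraries at both harvests. Against a floor of 3 reads over the untreated group, CTAG2 was at least 25.2-fold higher in UCSD-AML1 and at least 70.8-fold higher in ELF-153 at 96 h, and at least 29.9-fold and 71.1-fold higher at 144 h. Here and below, such folds take the treated reads as counted, so their counting error is not covered, which matters where treated reads are few. On the log2(scaled reads + 1) scale, which understates low genes, the limma effects at 96 h were 4.57 ± 0.36 (SE, adjusted p = 5.74e-07) in UCSD-AML1 and 6.18 ± 0.36 (adjusted p = 2.71e-08) in ELF-153. Of its family, CTAG1B was listed at 0 throughout. How reads shared by related genes were counted is not stated, so this 0 cannot be read as absence of CTAG1B. LAGE3, a widely expressed subunit of a tRNA-modifying complex, was the 1 gene of the list (3 symbols, 2 matched) that could be tested. LAGE3 was lower with DAC in ELF-153 (-1.26 at 96 h and -1.52 at 144 h) and in UCSD-AML1 at 96 h (-1.29). At 144 h it was not called in UCSD-AML1 (-0.18, adjusted p = 0.55). CTAG2 and CTAG1B transcripts matched at 72.5% of aligned positions, and 24.7% of the bases of the CTAG2 transcript that held all its reads belong to no other annotated transcript.

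SSX1 had 1 read over the untreated libraries, in UCSD-AML1 at 144 h. Its treated UCSD-AML1 libraries stood at 2.95, 5.62 and 7.77 scaled reads at 96 h and at 3.36, 2.62 and 1.13 at 144 h. In ELF-153 they stood at 84.3, 124 and 96.9 at 96 h and at 78.6, 165 and 102 at 144 h. No treated library overlapped an untreated one on the scaled values, but in UCSD-AML1 the treated levels were a few reads each. At 144 h the lowest treated library (1.13) and the highest untreated one (0.884) held 1 read each and were set apart by their size factors alone. SSX1 was at least 6.02-fold higher in UCSD-AML1 and at least 101-fold higher in ELF-153 at 96 h. ELF-153 was at least 122-fold higher at 144 h, and in UCSD-AML1 the ratio was 7.48 with a 95% counting interval of 1.00 to 332. The call in UCSD-AML1 at 144 h (1.39 ± 0.45, limma adjusted p = 0.0239) rested on few reads: without treated replicate 1 it was 1.17 (adjusted p = 0.0806), without treated replicate 2 1.30 (0.0645), without untreated replicate 2 1.23 (0.0858), without untreated replicate 3 1.23 (0.0693), and with DESeq2 adjusted p = 0.0556. With a pseudocount of 8 it was 0.32 (adjusted p = 0.301), and with no minimum adjusted p was 0.068. Of 11 other SSX genes listed, 6 were matched and none reached the minimum for testing. Their summed level in UCSD-AML1 was 1.58 to 6.42 scaled reads untreated and 8.85 to 16.5 treated at 96 h, and 0.884 to 1.92 and 8.40 to 12.4 at 144 h. In ELF-153 it was 0 to 7.17 and 0 to 6.10 at 96 h, and 0 to 3.20 and 7.31 to 15.6 at 144 h, so treated and untreated libraries overlapped in ELF-153 at 96 h and in no other pair of groups. SSX1 matched SSX4 at 89.9%, SSX3 at 88.4% and SSX2 at 78.6% of aligned transcript positions. Of 8 genes that act with SSX proteins in fusions or chromatin, 6 were tested, of which 2, 1, 2 and 1 were higher and 1, 0, 2 and 0 lower in UCSD-AML1 at 96 h, ELF-153 at 96 h, UCSD-AML1 at 144 h and ELF-153 at 144 h. Over all tested genes 20%, 20.7%, 20.1% and 20.8% were higher and 20.1%, 12.9%, 26.8% and 18.2% lower.

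PAGE2 and PAGE2B, neighbouring X-linked genes whose main transcripts matched at 97.0% of aligned positions, had 0 and 1 untreated reads. PAGE2 stood at 2.95, 4.5 and 5.83 scaled reads in treated UCSD-AML1 at 96 h, and at 119, 93.3 and 109 in treated ELF-153. PAGE2B stood at 17.7, 10.1 and 24.3 in treated UCSD-AML1 and at 135, 126 and 138 in treated ELF-153 at 96 h. All treated libraries at 96 h were above all untreated ones. At least 4.89-fold (PAGE2) and 19.6-fold (PAGE2B) higher levels were reached in UCSD-AML1, and at least 105-fold and 131-fold higher ones in ELF-153. At 144 h PAGE2 stood at 7.56, 19.2 and 0 in treated UCSD-AML1, so that treated and untreated libraries overlapped there, and at 95.1, 116 and 128 in ELF-153. PAGE2B at 144 h stood at 13.4, 12.2 and 12.4 in treated UCSD-AML1 and at 140, 118 and 147 in treated ELF-153, with no overlap with the untreated libraries. The PAGE2 call in UCSD-AML1 at 144 h (2.48 ± 0.80, limma adjusted p = 0.0218) was lost without treated replicate 1 (2.17, 0.0737), treated replicate 2 (1.55, 0.0989), untreated replicate 1 (2.48, 0.0548) or untreated replicate 2 (2.48, 0.0542), and when only the 6 libraries compared were fitted (0.0737). In the transcript that held 99.2% of PAGE2 reads, 44 bases belong to no other annotated transcript, and in the main PAGE2B transcript 51 do, so how reads were divided between these near copies is uncertain.

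PAGE5, a more distant copy on the same chromosome, held most of the untreated reads, and its effects were the lowest of the 8 tested genes. In untreated UCSD-AML1 it stood at 0, 1.83 and 0.788 scaled reads at 96 h, and in treated UCSD-AML1 at 4.92, 11.2 and 6.8. In ELF-153 at 96 h the untreated libraries stood at 1.12, 11.3 and 4.56 and the treated ones at 25.6, 42.7 and 48.9. Treated libraries were above untreated ones in both lines at 96 h, by 2.27 ± 0.62 (limma adjusted p = 0.0099) in UCSD-AML1 and 2.88 ± 0.62 (adjusted p = 0.00269) in ELF-153. With the mitochondrial ribosomal RNA share as a covariate the effects were 1.05 (adjusted p = 0.209) and 1.14 (adjusted p = 0.349). At 144 h UCSD-AML1 stood at 0.884, 0 and 0 untreated and 3.36, 1.75 and 0 treated, which overlapped (0.89 ± 0.87, adjusted p = 0.423). ELF-153 at 144 h stood at 17.4, 5.92 and 0 untreated and 24.7, 40.4 and 25.3 treated. These did not overlap (2.59 ± 0.87, adjusted p = 0.0314). That call was lost without treated replicate 1 (2.71, 0.0624), 2 (2.37, 0.0965) or 3 (2.70, 0.0625), without untreated replicate 2 (2.82, 0.0522) or 3 (1.43, 0.133), with edgeR (1.84, 0.0635), with DESeq2 (1.93, 0.0674), and with the mitochondrial covariate (0.20, 0.894).

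The wider GAGE, PAGE and XAGE family held 27 further symbols, of which 19 were matched and 3 tested. Their summed level was 0 in all 12 untreated libraries. In treated ELF-153 at 96 h it was 186 to 258 scaled reads, and in treated UCSD-AML1 0 to 3.37. The 3 tested genes were called higher in ELF-153 at both harvests (20.7% and 20.8% of all tested genes were). In UCSD-AML1 0 were at 96 h and 1, PAGE1, at 144 h (2.87), where 20% and 20.1% of all tested genes were. PAGE1 was at least 147-fold higher in ELF-153 at 96 h, and GAGE12J at least 25.5-fold. Since the counting of reads shared by related genes is not stated, the GAGE12J fold may not belong to that gene alone.

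PRAME, which is often abundant in myeloid leukaemia and is a T-cell target, stayed near 0 in these tables. It had 3 untreated reads and 38 reads in the 12 treated libraries. Treated UCSD-AML1 stood at 4.92, 1.12 and 0.971 scaled reads at 96 h and at 0.84, 0.875 and 1.13 at 144 h, overlapping the untreated libraries at both. Treated ELF-153 stood at 0.947, 1.74 and 5.87 at 96 h and at 10.1, 3.67 and 4.39 at 144 h, above untreated libraries at 0. Against the floor of 3 reads this gave 2.76-fold and 6.46-fold higher levels, on 9 and 19 treated reads whose counting error is not covered. With a minimum of 1 scaled read instead of 10, limma gave 2.71 ± 0.48 (adjusted p = 0.000581) for PRAME in ELF-153 at 144 h, 1.73 ± 0.61 (0.0472, and 0.0601 with no minimum at all) in ELF-153 at 96 h, 1.04 ± 0.61 (0.217) in UCSD-AML1 at 96 h and 0.58 ± 0.48 (0.385) in UCSD-AML1 at 144 h. Of 14 PRAME transcripts in the tables, 2 had reads, and 1 annotated as a decay transcript held 95.1% of the 41 reads. In 8 of the 14 every base is shared with another annotated transcript. Across all genes, 58090 such transcripts without a base of their own were at 0 in 90.8% of cases and held 0.807% of matched reads, against 24.7% at 0 among 91514 transcripts with at least 100 bases of their own. The level of PRAME in these tables can therefore not be read as the level of the whole gene. Of 16 matched genes of the PRAME family none reached the minimum for testing.

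Of the lists around PRAME, more retinoic acid genes were called higher than lower, while the summed level of that list was lower with DAC. The CUL2 ligase partners were mostly not called. Of 4 matched CUL2 ligase partners, 4 were tested at 96 h and 3 at 144 h. RBX1 was lower in UCSD-AML1 at 144 h (-1.16), and no other call was made. Of 23 retinoic acid receptors and targets, 11 were tested at 96 h and 10 at 144 h, and 4, 6, 4 and 4 were higher and 1, 2, 2 and 3 lower, in the order UCSD-AML1 and ELF-153 at 96 h, then at 144 h. Of all tested genes 20%, 20.7%, 20.1% and 20.8% were higher and 20.1%, 12.9%, 26.8% and 18.2% lower. The median effects of this list were 0.75, 0.74, 0.39 and 0.93, beside -0.03, 0.17, -0.14 and 0.11 for all tested genes. The summed level of the 23 genes went the other way. At 96 h it was 3053 to 3153 scaled reads untreated and 1708 to 2067 treated in UCSD-AML1, and 3576 to 4077 and 1864 to 2075 in ELF-153. At 144 h it was 2300 to 3014 and 1625 to 1944 in UCSD-AML1, and 3203 to 4123 and 2065 to 2327 in ELF-153. Genes that passed the minimum only through treated libraries, such as STRA8, were bound to differ. DHRS3, a retinal reductase, was higher in all 4 comparisons (2.75, 2.69, 3.73 and 2.73). RXRA, the common partner of the nuclear receptors, was lower in all 4 (-1.10, -1.66, -1.16 and -1.63). STRA8, a retinoic acid target that starts meiosis, had 0 untreated reads in both lines and was at least 35.9-fold higher in ELF-153 at 96 h. In UCSD-AML1 at 96 h it averaged 1.08 scaled reads with DAC.

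CTCFL had no untreated read and 4 treated reads, with 1 library of ELF-153 at 0.872 scaled reads at 96 h, 1 at 0.914 at 144 h, and 2 of UCSD-AML1 at 0.875 and 1.13 at 144 h. It was not called in any comparison when no minimum was set (adjusted p from 0.178 to 1). Of 22 CTCFL transcripts in the tables, 18 have no base of their own, so these values too cannot be read as absence of the gene. CTCFL-206, CTCFL-205 and CTCFL-207 do have 637, 399 and 264 bases of their own. They held 1, 0 and 0 treated reads at 96 h and 2, 1 and 0 at 144 h. The main PAGE2 transcript, with 44 bases of its own, held 352 and 377. The part of shared bases in the CTCFL level was not tested. Its somatic paralogue CTCF averaged 56.2 scaled reads untreated and 37.3 treated in UCSD-AML1 at 96 h, and 124 and 60.9 in ELF-153. Among 14 CTCF and cohesin genes, 11 were tested, and 0, 2, 1 and 3 were higher and 5, 2, 6 and 2 lower in the same order as above. The shares of all tested genes were 20%, 20.7%, 20.1% and 20.8% higher and 20.1%, 12.9%, 26.8% and 18.2% lower. SMC1A, a core cohesin subunit, was lower in all 4, with means at 96 h of 3637 scaled reads untreated and 1183 treated in UCSD-AML1 and 3447 and 1716 in ELF-153. REC8, the meiotic kleisin subunit, was higher in ELF-153 (1.90 at 96 h and 2.91 at 144 h) and in UCSD-AML1 at 144 h (0.73). STAG3, another meiotic subunit, was higher in ELF-153 at 144 h (3.85).

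**Figure D4:**
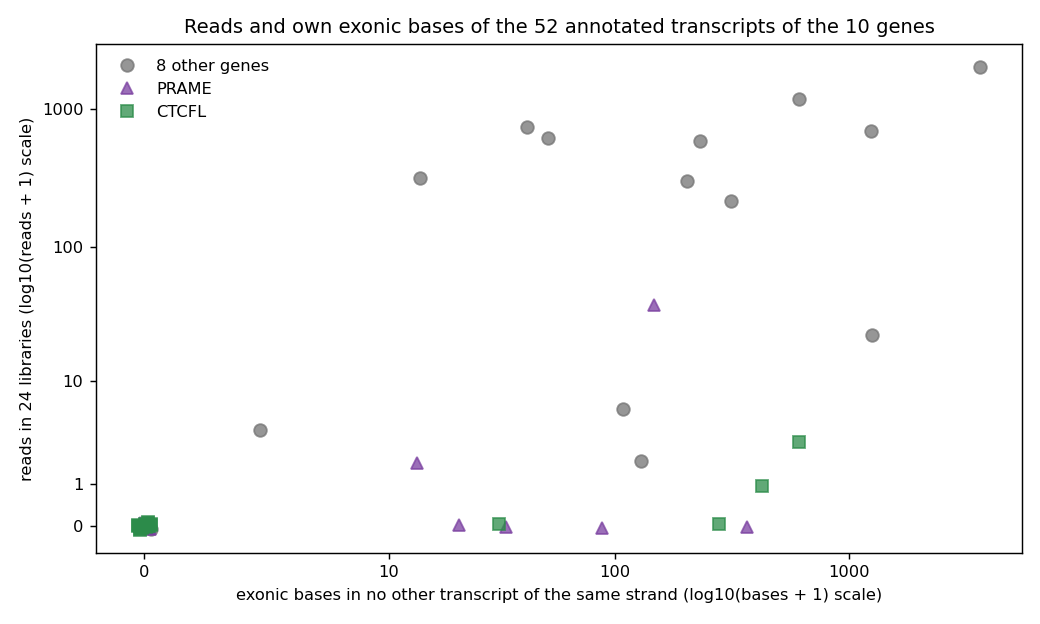
Reads summed over the 24 libraries (y axis) against the number of exonic bases that belong to no other annotated transcript on the same strand (x axis), for the 52 transcripts of the 10 genes, both axes on a log10(value + 1) scale with small horizontal and vertical jitter. The PRAME and CTCFL transcripts without a base of their own gather at the left edge, and the transcripts that hold most reads of DDX53, SSX1 and FMR1NB lie to the right. CTCFL-206, with 637 bases of its own and few reads, lies to the right as well.

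PASD1 had 0 untreated reads. Treated UCSD-AML1 stood at 6.89, 19.1 and 2.91 scaled reads at 96 h and at 2.52, 3.5 and 7.88 at 144 h. Treated ELF-153 stood at 25.6, 35.8 and 21.5 at 96 h and at 29.2, 33.9 and 59.3 at 144 h. All treated libraries were above the untreated ones, at least 10.2-fold in UCSD-AML1 and 27.6-fold in ELF-153 at 96 h, and at least 4.36-fold and 41.8-fold at 144 h. The spread among treated UCSD-AML1 libraries at 96 h (9.64 ± 8.44, SD, n = 3) was nearly as large as their mean.

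DDX53, the helicase gene, had 0 untreated reads and the largest read number of the group with DAC, 2052. In treated UCSD-AML1 it stood at 27.5, 33.7 and 27.2 scaled reads at 96 h and at 7.56, 21.9 and 11.3 at 144 h. In treated ELF-153 it stood at 259, 430 and 258 at 96 h and at 205, 406 and 247 at 144 h. It was at least 32.4-fold higher in UCSD-AML1 and at least 316-fold higher in ELF-153 at 96 h, and at least 13.7-fold and 303-fold higher at 144 h. The limma effects at 96 h were 4.92 ± 0.36 (adjusted p = 2.94e-07) and 8.26 ± 0.36 (adjusted p = 1.25e-09). DDX53 consists of a single transcript whose bases are all its own. Its paralogue DDX43, also a cancer-testis helicase, was at 0 untreated and averaged 2.38 (UCSD-AML1) and 14.8 (ELF-153) scaled reads with DAC at 96 h, and 0.28 and 16 at 144 h. The antisense gene PTCHD1-AS overlaps DDX53 on the opposite strand, and its highest group mean was 0.328 scaled reads. An annotated noncoding gene on the opposite strand of PRAME reached 3.49 at most, and RNA5SP524, opposite FMR1NB, 0.959. The counting is not stated to use strand in the sources used here. No base of the DDX53 transcript lies in an annotated exon of another transcript on either strand. In the main FMR1NB and PRAME transcripts the share of bases in no other annotated transcript was the same with both strands counted (57.5% and 24.6%). For their remaining bases, and for partner reads outside annotated exons, the strands cannot be told apart.

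FMR1NB had 3 untreated reads, all in UCSD-AML1. Its treated libraries stood at 46.2, 51.7 and 35 scaled reads in UCSD-AML1 and at 118, 182 and 162 in ELF-153 at 96 h. At 144 h they stood at 37, 21 and 42.8 in UCSD-AML1 and at 118, 150 and 126 in ELF-153. No treated library overlapped an untreated one. In UCSD-AML1 the ratio was 146 (95% counting interval 25.7 to 5794) at 96 h and 49.6 (13.4 to 415) at 144 h, and in ELF-153 FMR1NB was at least 153-fold and 139-fold higher. It had the largest log2 effect of the 8 tested genes in UCSD-AML1 at 96 h, 5.20 ± 0.39 (limma adjusted p = 3.38e-07), whereas in ELF-153 DDX53 had (8.26) and FMR1NB came next (7.26 ± 0.39).

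The untreated lines were compared directly. At 96 h PAGE5 was the 1 of 8 tested genes called higher in ELF-153 (22.7% of all genes were, and 25.7% had all ELF-153 libraries above all UCSD-AML1 ones, which none of the 10 members had), by 1.61 ± 0.62 (limma adjusted p = 0.0372), although the libraries overlapped. This call was lost without ELF-153 untreated replicate 2 (1.00, 0.174) or 3 (1.57, 0.0816), and without UCSD-AML1 untreated replicate 1 (1.22, 0.145) or 3 (1.64, 0.0724). At 144 h 0 of 8 were called (28.7% of all genes were called higher, and 31.6% did not overlap in that direction, against 0 of the 10 members), with 1 at an unadjusted p under 0.05, PAGE5 (2.03 ± 0.87, adjusted p = 0.067), and edgeR and DESeq2 each called it. Without ELF-153 untreated replicate 3, whose PAGE5 value was 0, it was called in limma as well (3.19, adjusted p = 0.0027). Pairing the libraries by replicate number, as a block in limma, gave 2.03 with adjusted p = 0.0253. This block pairs libraries of different lines, which no label links, so that p is no added support.

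After DAC, all 8 tested genes were called higher in ELF-153 than in UCSD-AML1 with limma, and at both harvests their 3 ELF-153 libraries lay above the 3 UCSD-AML1 libraries. At 96 h 20.8% of all genes were called higher in ELF-153 and 25.5% had libraries that did not overlap in that direction. At 144 h these shares were 30% and 40.2%. SSX1, PASD1, PAGE2 and PAGE5 passed the minimum for testing only through treated ELF-153 libraries, since at most 1 treated UCSD-AML1 library of each harvest reached 10 scaled reads, and so did DDX53 at 144 h, where 2 did. A higher level in ELF-153 was favoured for them by the choice of genes tested, and the count of 8 is a description. The difference at 96 h was 4.34 ± 0.38 for PAGE2, 4.05 ± 0.41 for SSX1 and 3.34 ± 0.36 for DDX53, at the upper end (limma adjusted p from 6.61e-07 to 5.04e-06). It was 1.61 ± 0.36 for CTAG2, 1.72 ± 0.53 for PASD1 and 1.77 ± 0.39 for FMR1NB at the lower end. PAGE2B (2.94) and PAGE5 (2.23) lay between. The order at 144 h again had SSX1 (5.10 ± 0.45), DDX53 (4.36 ± 0.44) and PAGE2 (4.34 ± 0.80) at the top and CTAG2 (1.14 ± 0.37, adjusted p = 0.024) at the bottom. At 144 h the median of all tested genes was itself 0.39 in favour of ELF-153, and with TMM and edgeR it was 0.03, where 3363 genes were higher and 3602 lower in place of 5152 and 2503. On that scaling 7 of the 8 were called and CTAG2 was not (0.84, adjusted p = 0.0861). DESeq2 did not call PAGE2 at 144 h (3.36, adjusted p = 0.106). CTAG2 at 144 h was also not called without ELF-153 treated replicate 3 (0.92, 0.0914) or UCSD-AML1 treated replicate 1 (1.00, 0.0752). PASD1 at 96 h was not called without ELF-153 treated replicate 2 (1.52, 0.0591) or UCSD-AML1 treated replicate 3 (1.15, 0.0849), with edgeR (1.62, 0.0501), with DESeq2 (1.59, 0.056) or with the mitochondrial covariate (1.75, 0.141). With that covariate CTAG2 at 96 h was not called either (1.44, 0.0911), which left 6 of 8.

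Whether the response itself differed between the lines was tested as the difference of the 2 DAC effects, where the genes that passed the minimum only through treated ELF-153 libraries were again favoured. At 96 h 6 of 8 were called larger in ELF-153 (17.1% of all genes) and 0 smaller (8.71%), namely PAGE2 (4.34 ± 0.54), SSX1 (4.05 ± 0.58), DDX53 (3.34 ± 0.51), PAGE2B (2.94 ± 0.56), FMR1NB (2.05 ± 0.55) and CTAG2 (1.61 ± 0.52, limma adjusted p = 0.0356). PASD1 (1.72 ± 0.75, adjusted p = 0.106) and PAGE5 (0.62 ± 0.87, adjusted p = 0.63) were not called. The CTAG2 call was lost when the libraries were paired by number as a block (adjusted p = 0.0687). It was also lost without any 1 of UCSD-AML1 untreated replicate 1 (0.0625), 2 (0.0645) or 3 (0.0632), UCSD-AML1 treated replicate 1 (0.0724) or 3 (0.0517), ELF-153 untreated replicate 1 (0.0558) or 3 (0.0531), and ELF-153 treated replicate 1 (0.0627) or 3 (0.0701). Without UCSD-AML1 treated replicate 2, PASD1 was called (2.33, 0.0224). At 144 h 6 of 8 were called larger (19.9% of all genes) and 0 smaller (10.1%), with SSX1 at 5.41 ± 0.64, DDX53 at 4.36 ± 0.62, PAGE2 at 4.34 ± 1.13, PAGE2B at 3.05 ± 0.53, PASD1 at 2.94 ± 0.63 and FMR1NB at 2.51 ± 0.67. CTAG2 (1.14 ± 0.53, adjusted p = 0.112) and PAGE5 (1.70 ± 1.23, adjusted p = 0.303) were not. With the mitochondrial covariate FMR1NB (2.52, 0.0616) and PAGE2 (2.82, 0.128) lost their calls at 144 h. For a gene at 0 in the untreated libraries of both lines, the difference on the log2(scaled reads + 1) scale is the difference of the treated levels. A count model of ratios has no baseline for such genes, and edgeR and DESeq2 called 0 of 8 at 96 h and 1 of 8 at 144 h. The 6 of 8 therefore state that more reads were reached in ELF-153 and not that a ratio was larger. TMM scaling with limma left 6 and 6, while all genes at 96 h went from 3011 higher and 1533 lower to 1984 and 1897 with edgeR, and at 144 h from 3420 and 1741 to 1961 and 2533.

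No DAC effect on a member was called as changed between the harvests. On the 24 libraries scaled together, 0 of 8 genes were called in UCSD-AML1 and 0 of 8 in ELF-153 by limma, 0 had an unadjusted p under 0.05, and edgeR called 0. Over all genes 0.0537% were higher and 0.0483% lower at 144 h in UCSD-AML1, and 0.0429% and 0% in ELF-153. The estimates ran from -1.21 (PAGE5) to 0.80 (CTAG2) in UCSD-AML1 and from -0.24 to 0.56 in ELF-153. A difference that misses the threshold does not show that levels were alike at the harvests.

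Other cancer-testis genes were counted by list. Of 17 MAGE genes, 8 were tested at 96 h and 9 at 144 h, and 7, 8, 8 and 9 were higher and none lower, in the order UCSD-AML1 and ELF-153 at 96 h, then at 144 h. Their median effects were 3.78, 6.76, 3.95 and 6.94 beside -0.03, 0.17, -0.14 and 0.11 for all tested genes. Their summed level at 96 h was 263 to 292 scaled reads in treated UCSD-AML1 and 1646 to 1762 in treated ELF-153. Of 34 other matched X-linked cancer-testis genes, 7 were tested at 96 h and 6 at 144 h, and 4, 6, 3 and 6 were higher and none lower. VCX, a testis gene of the X-linked VCX family, averaged 84.8 scaled reads in treated ELF-153 at 96 h and 3.12 in treated UCSD-AML1. The autosomal ones were called in both directions: of 100 matched, 31 were tested at 96 h and 26 at 144 h, with 6, 12, 5 and 8 higher and 13, 4, 9 and 8 lower. Beside the counts of these 3 lists, 20%, 20.7%, 20.1% and 20.8% of all tested genes were higher and 20.1%, 12.9%, 26.8% and 18.2% lower. CEP55, an abscission protein of dividing cells on that list, changed by -4.62 on the log2 scale in UCSD-AML1 at 96 h. As for the members, genes that passed the minimum only through treated libraries were bound to differ, so these counts describe the tested genes alone.

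Markers of other cells were read beside these results, in the order UCSD-AML1 and ELF-153 at 96 h, then at 144 h. For comparison, 20%, 20.7%, 20.1% and 20.8% of all tested genes were higher and 20.1%, 12.9%, 26.8% and 18.2% lower. Of 10 myeloid and progenitor markers, 9 were tested at 96 h and 8 at 144 h, and 2, 2, 1 and 1 were higher and 3, 2, 5 and 2 lower. Of 8 lymphoid markers, 4 were tested, with 1, 0, 1 and 0 higher and 2, 2, 3 and 2 lower. Of 9 fibroblast and epithelial markers, 3 were tested at 96 h and 4 at 144 h, with 1, 1, 2 and 1 higher and 0, 0, 0 and 1 lower. Of 11 markers of testis somatic and late germ cells, 3 were tested, with 2, 2, 2 and 1 higher and 0, 1, 0 and 1 lower. The summed level of that testis list ran at 96 h from 96.2 to 117 scaled reads untreated and 185 to 235 treated in UCSD-AML1, and from 442 to 643 untreated and 150 to 200 treated in ELF-153, where 7 of the 11 were at 0 untreated and 4 treated. The part of these changes in the members' levels was not tested.

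The tested genes near the members on the chromosome were called in both directions. The nearest protein-coding neighbours, 2 on each side of each member and members left out, made 34 genes, of which 12 were tested at 96 h and 13 at 144 h. Of these, 4, 3, 4 and 3 were higher and 4, 2, 4 and 3 lower. Of all tested genes 20%, 20.7%, 20.1% and 20.8% were higher and 20.1%, 12.9%, 26.8% and 18.2% lower. The counts leave out the untested neighbours, of which some had reads only with DAC and others had none in any group. PHEX, an endopeptidase gene of phosphate balance near DDX53, was higher in all 4 comparisons (4.21, 2.42, 3.11 and 3.27), with group means of 0 to 0.683 untreated and 24.3, 6.78, 12.4 and 10.3 scaled reads treated. CBLL2, which lies between PHEX and DDX53, was below the minimum for testing. IDS, a lysosomal sulphatase gene near FMR1NB, was higher in all 4 (1.00, 1.11, 0.90 and 1.01), and MAGEH1, near PAGE5, was lower in all 4 (-0.63, -1.05, -0.75 and -1.53). AFF2, which lies between FMR1NB and IDS, was below the minimum for testing. GAB3, near CTAG2, was higher in UCSD-AML1 at 96 h (limma adjusted p = 0.000856) and at 144 h in both lines (1.02 and 1.12), and RBM38, near CTCFL, in UCSD-AML1 (1.67 and 2.68). MTRNR2L10, near the PAGE genes, was higher in ELF-153 at 96 h (1.69). The mitochondrial ribosomal RNA share was also higher with DAC there (13.1% to 35% untreated, 37.3% to 49.8% treated). Its part in the MTRNR2L10 call was not tested. VMA21, near PASD1, was lower in UCSD-AML1 (-1.24 and -1.07) and in ELF-153 at 144 h (-0.88). DKC1, near CTAG2 (-0.84 and -1.55), and PRDX4, near DDX53 (-1.56 and -0.998), were lower in UCSD-AML1, and APEX2, near PAGE2, was lower in ELF-153 (-0.55 and -0.59).

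Genes whose levels ran most alike with a member over the 12 libraries of a table, by the mean Pearson correlation over both tables, were germ-line or X-linked genes in several cases. The likeness is a description over libraries that share line, treatment and depth, with no test. For CTAG2 it was highest with DAZL, a germ-cell RNA-binding protein (0.998), and DAZL also led for FMR1NB (0.992). MAGEA6 was among the 3 nearest of both DDX53 and PAGE2B. For SSX1 the nearest was LINC01287 (0.990), and for PAGE2 it was BEX1 (0.982).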

How the data were processed

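RNA of 24 libraries was depleted of ribosomal RNA and sequenced as stranded pairs, per the labels' protocols. Tools listed in the submitters' processing notes are STAR, TopHat2, HTSeq, DESeq2 and FastQC, with build hg19. Their versions and steps are not given in the sources used here. The deposited values are signal, reads per Ensembl transcript divided by 1 size factor per library and scaled within each harvest's table. Dividing by each library's step recovered whole reads for 100% of non-zero values (tolerance 0.01). Of 204940 transcripts, 181859 (88.7%) matched GENCODE release 29 and were summed to genes; 23081 were left out.

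Genes at 10 or more in at least 3 of 12 libraries of a table were tested on log2(value + 1) in limma 3.58.1 (group means, 12 libraries, trended and robust variance) under R 4.3.3, with Benjamini-Hochberg adjustment over all genes and a threshold of 0.05. The change between harvests used reads of 24 libraries with TMM scaling. edgeR 4.0.16 and DESeq2 1.42.0 on recovered reads were alternatives. The code was tested on simulated data. Folds against 0 reads use a floor of 3 reads over the group and take the reads of the other group as counted. The 95% intervals are exact and cover counting error only.

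All members were described. Other genes were named by rule: up to 4 per list with the smallest p, neighbours called in any DAC effect, and the 3 most alike. Members and lists were chosen with earlier results of these data known. In UCSD-AML1 at 144 h the deviations of same-numbered libraries correlated at 0.133, 0.123 and 0.264, which met a rule that every one be above 0.1. A differently numbered pair there, untreated 2 with treated 1, reached 0.140, so the rule does not show pairing by number. The main fit had no pairing, and a block by number was an alternative only. The repeat table was not used here.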

Additional observations from a re-analysis of the deposited data

Results flagged for a closer look

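In all, 12 differences of the DAC effect between the lines passed the test of the difference itself (limma, treated minus untreated in ELF-153 minus the same in UCSD-AML1, log2 of scaled reads + 1), and each was larger in ELF-153. At 96 h they were 4.34 for PAGE2, 4.05 for SSX1, 3.34 for DDX53, 2.94 for PAGE2B, 2.05 for FMR1NB and 1.61 for CTAG2. At 144 h they were 5.41 for SSX1, 4.36 for DDX53, 4.34 for PAGE2, 3.05 for PAGE2B, 2.94 for PASD1 and 2.51 for FMR1NB. PAGE2, PAGE2B, SSX1, DDX53 and FMR1NB passed at both harvests. The untreated libraries of both lines were at or within a few reads of 0 for all of them, so on this scale the difference follows the treated level. The mitochondrial ribosomal RNA share of the reads was higher in UCSD-AML1 than in ELF-153 libraries at 96 h in both treatments, and with it as a covariate 6 of 8 genes passed at 96 h and 4 of 8 at 144 h, where over all genes 1736 were larger and 756 smaller in ELF-153 in place of 3420 and 1741. SSX1 at both harvests, PAGE2 at both, and PASD1 and DDX53 at 144 h were tested only because treated ELF-153 libraries reached the minimum.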

How the results depend on the processing

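Over 1304 alternatives of single genes, 1189 kept direction and side of the threshold, 96 lost a call, 9 gained one and 10 changed sign. The changes of sign were all of PAGE5, in differences that were not called. Its difference of the DAC effect between the lines at 96 h became -0.33 (edgeR with TMM), -0.34 (edgeR with RLE), -0.49 (DESeq2) and, when 1 replicate was left out, ranged from -0.0378 (without ELF-153 untreated 96 h replicate 1) to 1.23. At 144 h it became -0.55, -0.47 and -0.60 with those tools and -0.50 with the mitochondrial covariate. Its change between harvests in ELF-153 became 0.42 and 0.73 without ELF-153 untreated replicate 1 of 96 h and of 144 h, over a range of -1.44 to 0.73 without a replicate. The cause was not tested.

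The number of members called in each of the 4 DAC effects stayed within 1.5 times under every alternative run, while effects of single members moved more, as for PAGE5 and SSX1. The number of members called between untreated lines at 96 h went from 1 to 0 with a pseudocount of 8, no filter or only the 6 libraries compared, and ranged from 0 to 1 when a replicate was left out. At 144 h it went from 0 to 1 with edgeR (TMM or RLE), DESeq2, the mitochondrial covariate and the replicate block, and ranged from 0 to 1 without a replicate. The difference of the DAC effect went from 6 to 0 at 96 h and from 6 to 1 at 144 h with edgeR (TMM or RLE) and DESeq2, whose ratios have no baseline in genes without untreated reads. With the replicate block (pairing by number), members called in the DAC effects stayed at 8, 8, 7 and 8, and the count for the difference at 96 h went from 6 to 5, without CTAG2. With the mitochondrial covariate all genes in ELF-153 at 96 h gave 2126 higher and 1350 lower in place of 3642 and 2271. Counts in untreated cells rest on 0 to 24 reads per gene and library, which limits any fold.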
